A study of Mus musculus with 9 samples.

Results

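The intervals described here are the Gm4665 intervals nearest the centromeric end of each mouse autosome. They were chosen by position alone: an interval belonged when it lay on chromosomes 1 to 19 and started between 3000000 and 8000000 bp of the mm10 mouse genome. There were 1351 of them among 37617 Gm4665 intervals on the autosomes (3.59%) and 38827 in the whole list. The cells were germ cells of the testis, taken at postnatal day 35 from ICR mice of wild-type genotype, and their cross-linked, sonicated chromatin was captured with biotinylated probes. One probe set was directed at the long noncoding RNA Gm4665, which the sample titles call LncRNA-20, and the control set was labelled LacZ, the name of a bacterial gene that mice lack. All 9 samples shared the same strain, age and tissue and formed 3 groups of 3 replicates, namely input DNA and the DNA captured with each probe set. No label says that replicates were separate animals or cultures, so p-values measure only the spread between these samples, which may be technical. The files hold DNA intervals and no expression, so the cell type could not be checked against its markers.

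Mouse autosomes carry the centromere at one end, so the first assembled bases of each chromosome lie beside it. The centromere and its flank are built of satellite repeats, which the assembly mostly leaves as a gap, and the windows studied here hold the assembled sequence that follows. Capture of an RNA retrieves the DNA cross-linked to it, and DNA also retrieved with LacZ probes marks the background of the method. The value of an interval is its fold enrichment over input, which the authors gave for each replicate. The lists for Gm4665 and LacZ were normalized separately, so their folds were compared only as ratios within a list. The depth of the libraries is unknown, and the intervals given for shares and density ratios cover counting error only.

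The promoters below are shown because a Gm4665 interval of these windows covers each of them completely. Gdi2 has the strongest interval to cover all 250 bases before the start of a protein-coding gene, and the others were chosen after their values were seen. Each is written 5′ to 3′ on the strand named, from the RefSeq promoter table of GRCm38.p6, the assembly also called mm10, and ends at the base before the start of the gene. The third is the sequence between the starts of Ewsr1 and Rhbdd3, which are transcribed away from each other. Capitals mark GC boxes (GGGCGG on either strand) and CCAAT boxes (CCAAT on either strand), 2 short motifs common in mammalian promoters.
Gdi2, plus strand, chr13:3537825-3538074: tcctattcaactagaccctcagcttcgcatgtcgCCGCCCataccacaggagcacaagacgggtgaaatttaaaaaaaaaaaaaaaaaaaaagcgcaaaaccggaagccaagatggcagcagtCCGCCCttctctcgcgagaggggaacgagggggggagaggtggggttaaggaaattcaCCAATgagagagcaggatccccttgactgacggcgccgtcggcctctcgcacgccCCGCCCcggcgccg
Mgrn1, plus strand, chr16:4885850-4886099: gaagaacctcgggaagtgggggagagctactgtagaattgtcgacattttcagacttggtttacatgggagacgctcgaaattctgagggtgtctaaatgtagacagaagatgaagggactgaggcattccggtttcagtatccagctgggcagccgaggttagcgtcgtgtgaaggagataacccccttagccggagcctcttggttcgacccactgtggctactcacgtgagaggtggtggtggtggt
Ewsr1 to Rhbdd3, minus strand, chr11:5099097-5099272: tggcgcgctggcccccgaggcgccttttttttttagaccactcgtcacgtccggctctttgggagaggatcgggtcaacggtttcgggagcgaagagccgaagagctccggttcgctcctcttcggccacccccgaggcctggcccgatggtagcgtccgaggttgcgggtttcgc
Cdk6, plus strand, chr5:3343643-3343892: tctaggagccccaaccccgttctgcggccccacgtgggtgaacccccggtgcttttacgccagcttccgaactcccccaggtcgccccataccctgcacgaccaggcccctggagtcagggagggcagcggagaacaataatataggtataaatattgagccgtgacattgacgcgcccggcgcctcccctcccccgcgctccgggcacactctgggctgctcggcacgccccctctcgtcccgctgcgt
Tasor2, minus strand, chr13:3611109-3611358: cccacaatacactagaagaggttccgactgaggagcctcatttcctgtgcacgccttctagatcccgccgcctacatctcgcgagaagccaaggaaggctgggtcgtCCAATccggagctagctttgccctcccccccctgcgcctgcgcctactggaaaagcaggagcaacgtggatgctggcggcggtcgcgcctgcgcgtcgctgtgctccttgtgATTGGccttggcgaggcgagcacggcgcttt

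Gdi2 encodes a GDP dissociation inhibitor that recycles Rab proteins, and the interval over its start had folds of 32.7, 27.1 and 27.2 in replicates 1, 2 and 3 (29.0 ± 3.21, SD, n = 3). Its summit lay 99 bp after the start, and the sequence before the start holds 3 GC boxes and 1 CCAAT box. At Mgrn1, a ubiquitin ligase gene, the folds were 26.9, 17.2 and 23.7 (22.6 ± 4.93, SD, n = 3), and its sequence holds neither motif. The interval over the divergent starts of Ewsr1, an RNA-binding protein gene, and Rhbdd3 reached 21.5, 8.36 and 20.3 (16.7 ± 7.28, SD, n = 3), with replicate 2 well below the others. Cdk6, a kinase of the cell cycle, had the closest agreement of these, with folds of 15.5, 16.7 and 15.1 (15.8 ± 0.804, SD, n = 3). Tasor2 had the weakest, at 11.3, 8.16 and 6.72 (8.71 ± 2.31, SD, n = 3), and its sequence holds 2 CCAAT boxes.

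Few promoters overlapped an interval, wholly or in part, in the windows or elsewhere. Of 1270 RefSeq promoter windows (250 bases before and 50 after a start) that lie in the 19 windows, 28 overlapped a Gm4665 interval (2.20%), against 1.85% in the rest of the autosomes. These 28 belong to 23 genes and to 21 intervals, 1.55% of all 1351. LacZ intervals overlapped 8 of the same promoters (0.630%), against 0.760% elsewhere. A GC box was present in the 250 bases before the start in 7 of the 28 (25%), and in 33.0% of 31396 autosomal promoters. A CCAAT box was present in 5 of the 28 (17.9%) and in 33.7% of all. The cAMP response element TGACGTCA, searched on both strands, was in none of the 28 and in 1.58% of all. GAGAGA was found in 7 of the 28 (25%) and in 20.3% of all promoters, and CACACA in 3 (10.7%) and in 18%. The motif searches describe letters in these windows only, and neighbouring starts of a gene share sequence.

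One interval also reached a microRNA. Its mature sequence is shown because the interval at chr19:6914257-6914792 covers all 21 of its bases, with the seed (bases 2 to 8) in capitals.
mmu-miR-6990-5p, minus strand, chr19:6914261-6914281: cCCAGGGUgagucagggcucu
The folds there were 12.8, 6.87 and 14.6 (11.4 ± 4.05, SD, n = 3), lowest in replicate 2, and 30 of the 91 bases of the hairpin were covered. It was the only one of 34 microRNA hairpins in the windows to overlap a Gm4665 interval. Hairpins in the rest of the autosomes were not counted, so this share has no direct comparison. By the looser measure of an interval within 2 kb of a gene end, 1 of 36 microRNA genes in the windows had one. Elsewhere 75 of 1057 (7.10%) did.

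Pooled over the 19 autosomes, Gm4665 intervals were slightly sparser beside the centromere than along the rest of these chromosomes. Stretches further along the arms were as sparse, as given below. Single autosomes varied widely, with a median ratio of 0.999 and a denser window on 9 of the 19, a spread that counting error leaves out. The windows, 95 Mb in all, held 14.2 intervals per Mb against 15.7 per Mb elsewhere, a ratio of 0.905 (95% interval 0.857 to 0.956). The share of autosomal intervals in the windows was 3.59% (95% Wilson interval 3.41% to 3.78%). LacZ intervals numbered 354 in the same windows, 3.84% of 9213, at 3.73 per Mb against 3.84 per Mb elsewhere, a ratio of 0.971 (0.873 to 1.08). The 95% intervals of the ratios overlap, and each list has only 1 set of positions for its 3 replicates, so the difference between the probes has no replicate test. Against only the adjacent sequence from 8000000 to 13000000, which held 1511 Gm4665 intervals, the ratio was 0.894 (0.831 to 0.962). The LacZ ratio against that adjacent sequence was 1.07 (0.921 to 1.24). The last 5 Mb of the same chromosomes, at the end away from the centromere, held 16.8 Gm4665 and 4.39 LacZ intervals per Mb, both above the rest of the autosomes.

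Within the windows there was no steady trend with distance. The first Mb held 247 intervals, the next 3 held 286, 281 and 254, and the last held 283, which are 13.0, 15.1, 14.8, 13.4 and 14.9 per Mb. The Mb beyond the windows held 17.2 per Mb, but every bin from 13 to 20 Mb held only 12.7 to 14.3 per Mb. The lowest of these lay between 14 and 15 Mb. A low density was thus not particular to the windows. The profile of density with distance shows values as low as those of the windows further along the arms.

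**Figure D1:**
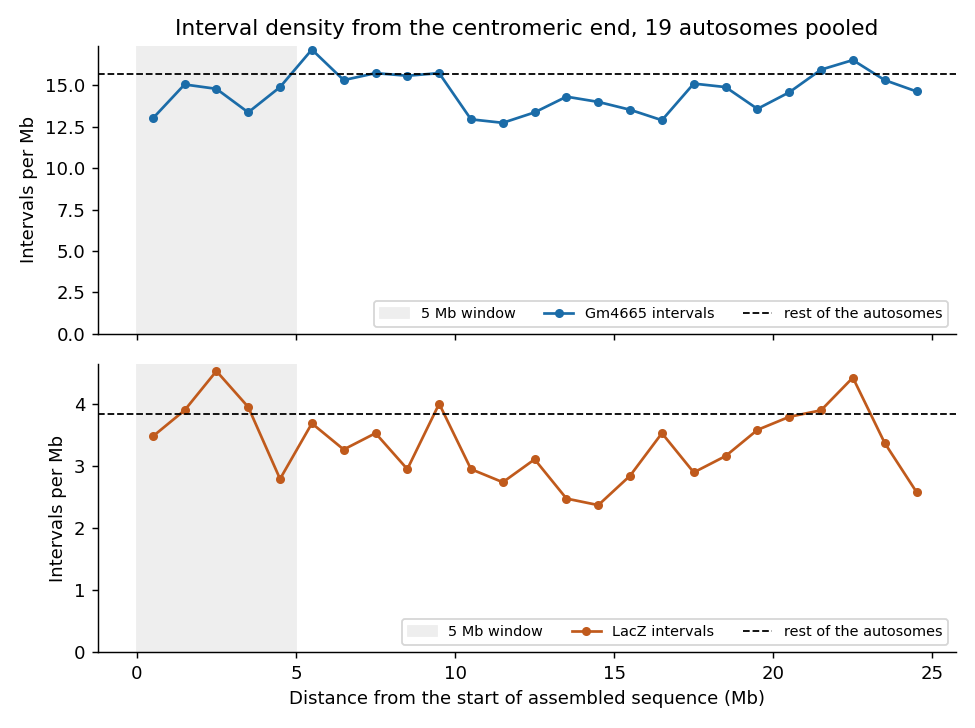
Intervals per Mb in bins of 1 Mb (y axis) against distance in Mb from the start of assembled sequence (x axis), with the 19 autosomes pooled, Gm4665 above and LacZ below; the shaded part is the window and the dashed line is the density of the rest of the autosomes. Gm4665 bins in the window lie between 13.0 and 15.1 per Mb, all below the line at 15.7 per Mb, and bins further along reach both 12.7 and 17.2 per Mb.

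Intervals began almost at the first assembled base. The first 100 kb held 27 Gm4665 intervals on 15 of the 19 autosomes, or 14.2 per Mb, the same density as the whole windows. The first interval of an autosome started between 3000324 on chromosome 9 and 3508824 on chromosome 14, with a median of 3059040. Those lowest starts had weak to moderate values: 1.40, 1.37 and 1.61 on chromosome 9 (1.46 ± 0.134, SD, n = 3), 6.60, 5.36 and 9.61 at chr7:3001453-3001991 (7.19 ± 2.18), and 4.17, 4.49 and 7.62 at chr5:3010667-3011132 (5.43 ± 1.91). At the other boundary, the interval just inside 8000000 (chr14:7996749-7997077) had a mean fold of 8.44 ± 1.21 and the interval just outside it (chr1:8000070-8000631) 7.56 ± 1.92 (SD, n = 3).

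The autosomes differed far more than the pooled ratio. Chromosome 11 had the densest window, with 118 intervals or 23.6 per Mb, followed by chromosome 18 with 94 (18.8 per Mb) and chromosome 19 with 88 (17.6 per Mb). Chromosome 14 had the sparsest, with 32 or 6.40 per Mb, followed by chromosome 5 with 41 (8.20 per Mb) and chromosome 9 with 52 (10.4 per Mb). Relative to the rest of its own chromosome, the window ratio ran from 0.422 on chromosome 14 to 1.30 on chromosome 11, with a median of 0.999. The window was denser than the rest on 9 of the 19 autosomes. Without chromosome 14 the pooled ratio was 0.931, and without chromosome 11 it was 0.879.

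**Figure D2:**
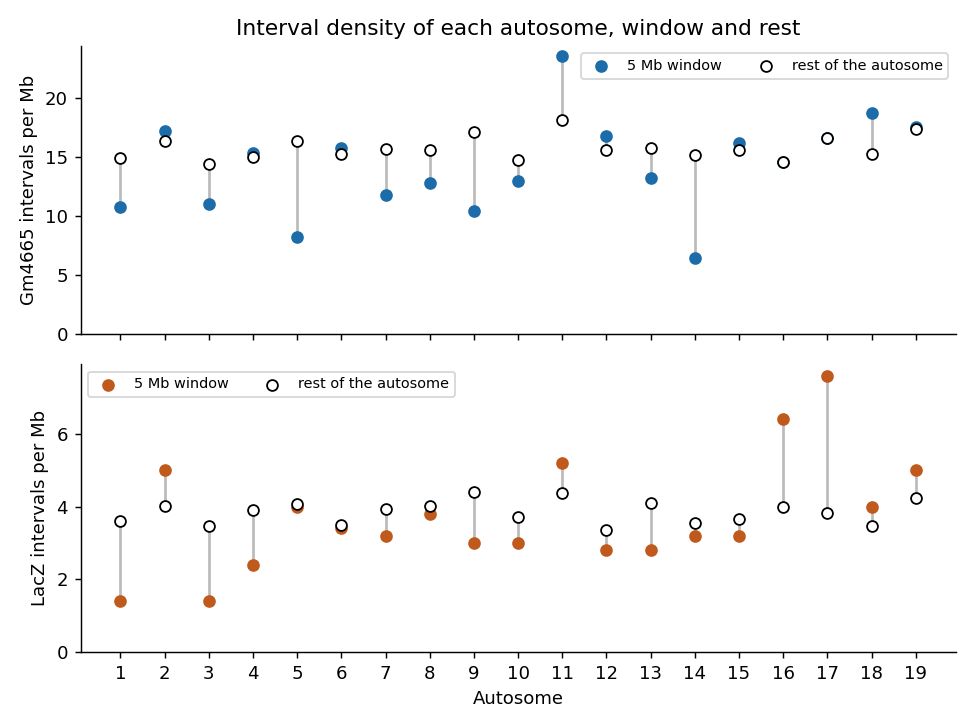
Intervals per Mb (y axis) for each autosome (x axis), in the window (filled) and in the rest of the autosome (open), Gm4665 above and LacZ below. For Gm4665 chromosome 11 stands highest at 23.6 per Mb and chromosome 14 lowest at 6.40 per Mb, while the rest of each autosome stays between 14.4 and 18.2 per Mb.

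Chromosome 14 also differed in its genes. In its window 71 of 80 protein-coding genes (88.8%) bear Gm-number names, which mark gene models without an assigned name, against 0% to 10.8% in the other 18 windows. The bin from 3 to 4 Mb there held 3 intervals and that from 5 to 6 Mb held 1; they were the only bins of 1 Mb among the 95 of the windows with fewer than 5 intervals. LacZ intervals in that window numbered 16, and their ratio to the rest of the chromosome was 0.898. Reads from near-identical copies can map to several places, the sources used here do not give how such reads were treated, and their part in these counts was not tested. The part of gene number was described only by rank: over the 19 windows the count of Gm4665 intervals had a Spearman rho of 0.339 with the number of genes and 0.480 with the count of LacZ intervals, and the points share sequence and mappability.

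The strength of the intervals was close to that elsewhere. The median fold in the windows was 11.4 in Gm4665 replicate 1, 8.16 in replicate 2 and 10.3 in replicate 3, and in the rest of the autosomes it was 11.4, 8.50 and 10.3. The ratios were 1.00, 0.960 and 1.00, with a mean of 0.987 ± 0.0231 (SD, n = 3). An exact sign-flip permutation test of their log2 values, two-sided, gave p = 1.00 (n = 3). The log2 ratio was 0 in replicates 1 and 3, so the test could give no other p and decides nothing. For LacZ the medians were 23.0, 8.45 and 10.4 in the windows and 23.0, 8.18 and 10.9 elsewhere, with ratios of 1.00, 1.03 and 0.948 and a mean of 0.994 ± 0.0427 (SD, n = 3). Gm4665 minus LacZ was -0.00721, less than the spread between replicates (exact permutation test, two-sided, p = 1.00, n = 3 and 3; 3 against 3 cannot go below 0.1). Of the Gm4665 intervals in the windows, 10.9%, 9.92% and 10.2% lay among the strongest 10% of the autosomes in replicates 1, 2 and 3.

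**Figure D3:**
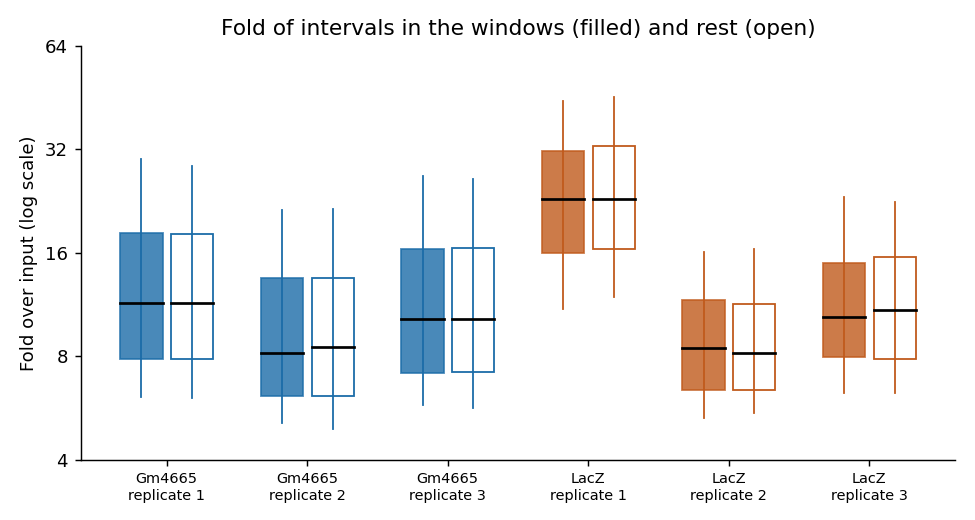
Fold over input (y axis, log scale) of the intervals in the windows and in the rest of the autosomes for each replicate and probe set (x axis); boxes span the quartiles, the line is the median and whiskers run from the 10th to the 90th percentile. Window and rest look alike within each replicate, with Gm4665 window medians of 11.4, 8.16 and 10.3 beside 11.4, 8.50 and 10.3.

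Mean log2 folds gave another view. Windows minus rest was 0.0112, -0.00284 and 0.00373 on the log2 scale in the 3 Gm4665 replicates and -0.105, -0.0435 and -0.0383 in the 3 LacZ replicates, so the groups did not overlap (difference 0.0664; exact permutation test, two-sided, p = 0.1, the smallest that 3 against 3 allows). That separation rested on 40 kb of chromosome 9. Without it the LacZ values were 0.00339, 0.0217 and 0.0210, and the difference was -0.00916 (exact permutation test, p = 0.3, n = 3 and 3).

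The 40 kb in question are the first of the chromosome 9 window. They held 10 LacZ intervals between 3000273 and 3035200, of 15 in the whole window, and 1 Gm4665 interval, chr9:3000324-3000608, which overlapped one of them. The LacZ folds there ran from 1.36 to 3.32 and were highest in replicate 3 at all 10. The Gm4665 interval had the highest pileup (read coverage at the summit) of all 1351 at 512, the next being 418, and the lowest mean fold, 1.46. The LacZ pileups there were 331 to 475, and no other LacZ interval of the windows exceeded 304. In the rest of the autosomes pileups reached 526 for Gm4665 and 476 for LacZ. The next Gm4665 intervals on chromosome 9 were of usual strength, at 14.9 ± 0.555 (chr9:3060806-3061577) and 23.9 ± 6.34 (chr9:3085827-3086804; SD, n = 3). Elsewhere in the windows every Gm4665 interval reached a fold of 4 in at least 1 replicate, so that 1 of 1351 (0.0740%) stayed under 4 in all 3, against 0.0414% in the rest. For LacZ, 10 of 354 (2.82%) stayed under 4 in all 3, against 0.0564% in the rest.

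**Figure D4:**
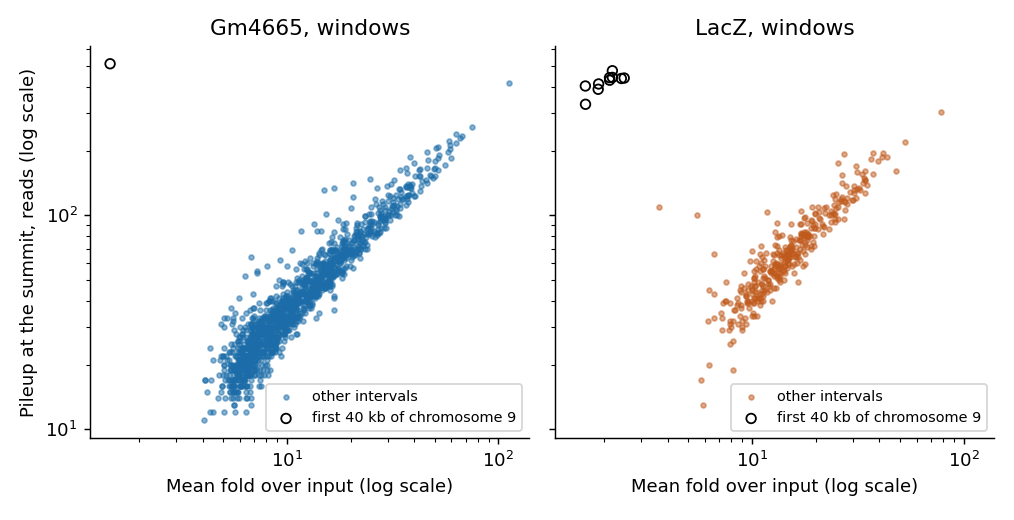
Pileup at the summit in reads (y axis, log scale) against mean fold over input (x axis, log scale) for each interval of the windows, Gm4665 in one panel and LacZ in the other; open circles mark the first 40 kb of chromosome 9. The 1 Gm4665 interval there has a pileup of 512 at a mean fold of 1.46, and the 10 LacZ intervals have pileups of 331 to 475 at mean folds of 1.63 to 2.49, apart from the other points.

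The intervals were a little narrower and further apart than elsewhere. Their median width was 561 bp (quartiles 360 and 841) against 586 bp in the rest, a ratio of 0.957, while LacZ widths were 845 and 846 bp. The median distance to the nearest other Gm4665 interval was 22204 bp against 20845 bp. The intervals covered 871 kb, or 0.917% of the windows, against 1.04% of the rest. In all 3 replicates a fold of at least 10 was reached by 472 of the 1351 (34.9%), against 34.7% in the rest, and a fold of at least 30 by 55 (4.07%), against 3.50%. In all 3, a fold of at least 4 was reached by 1303 (96.4%), against 95.7%. Replicates ranked the intervals alike, with a Spearman rho across intervals of 0.834, 0.833 and 0.782 for the 3 pairs, which share the interval list. In the rest of the autosomes these were 0.820, 0.829 and 0.782. Replicate 1 gave the highest fold at 57.9% of window intervals and replicate 2 at 8.14%, against 56.2% and 9.775% in the rest.

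The strongest interval of the windows lay in Insr, the insulin receptor gene, at chr8:3175686-3179144. Its folds were 142.9, 130.3 and 65.0 (113 ± 41.8, SD, n = 3), and at 3459 bp it was also the widest. It was joined from 4 repeated rows by keeping each replicate's highest fold, which favours high values, and the folds may come from different rows. The interval in Rps6ka2, given below, was joined from 2 rows. Replicate 3 was far below the others, but the interval stayed first when any 1 replicate was left out, with means of 97.7, 104 and 136.6. Celf2, a splicing regulator, held the next at chr2:6577338-6580137, with folds of 88.7, 70.7 and 66.6 (75.3 ± 11.7, SD, n = 3) over 2800 bp. It was also the next in width.

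Another 7 of the strongest 10 had means of 58.4 to 65.6. Inside genes were those of Rps6ka2, a ribosomal S6 kinase gene (chr17:7136255-7138424; 74.3, 43.1 and 72.0), of Egflam, which encodes pikachurin, a matrix protein (chr15:7283953-7285649; 63.8, 49.997 and 64.6), and of Gm1604b (chr17:7075475-7077088; 66.9, 54.4 and 53.7). Between genes, the interval at chr17:4989217-4990968 lay 3.33 kb from Arid1b, a subunit of a chromatin remodeller, with folds of 69.9, 42.9 and 63.7. Chromosome 19 had a pair: 1 lay 1.49 kb from the long noncoding RNA gene Gm32245 (78.2, 61.6 and 56.9) and the other 13.4 kb from Ccdc88b (74.3, 61.2 and 53.7). The last lay 7.28 kb from the small nuclear RNA gene Gm22155 on chromosome 6 (66.3, 60.5 and 50.4). The nearest LacZ interval was 19.2 to 263.7 kb away, so 0 of the 10 overlapped one. Of all intervals, 1.04% in the windows and 0.907% in the rest did. The median distance in the windows was 93.5 kb. All of the 10 but those in Egflam (190.5 kb) and near Ccdc88b (263.7 kb) lay nearer to a LacZ interval than that. Leaving out replicates 1, 2 and 3 in turn kept 9, 8 and 9 of the 10.

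**Figure D5:**
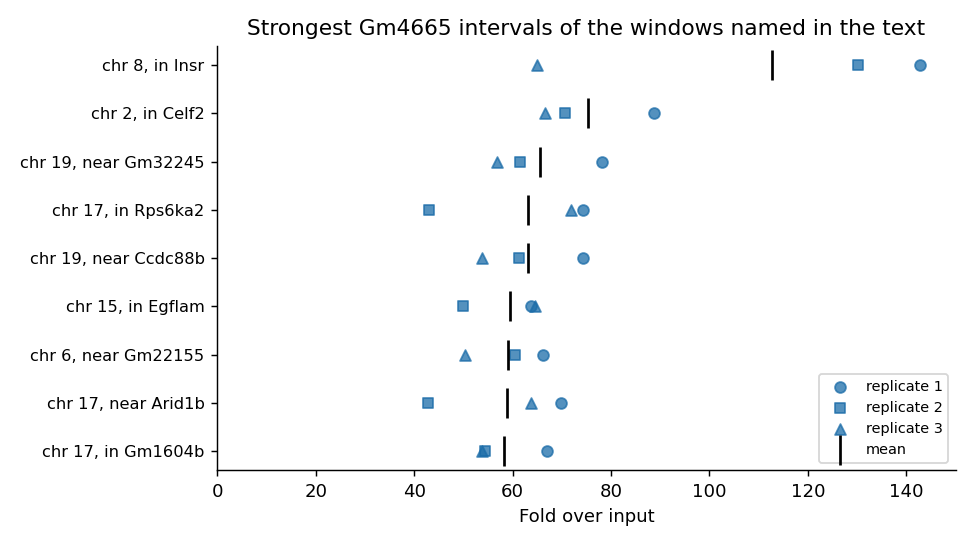
Fold over input (x axis) of those of the strongest 10 Gm4665 intervals in the windows that are described in the text (y axis, named by the gene they lie in or nearest to), with 1 symbol for each replicate and a bar at the mean. The Insr interval stands apart in replicates 1 and 2, at 142.9 and 130.3, and lies at 65.0 in replicate 3, among the others.

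The strongest interval of an autosome's window ranged from a mean of 24.6 ± 6.04 (SD, n = 3) on chromosome 14 (chr14:6679091-6679668, in Gm3629 and Gm33198) to that of Insr. The chromosome 10 value was also low, at 33.8 ± 7.72 in the overlapping genes Oprm1, the mu opioid receptor, and Ipcef1. Chromosome 16 followed at 43.5 ± 6.36 in Sec14l5, and the highest interval of chromosome 18 lay in Gm46633 at 52.0 ± 20.05 (SD, n = 3). The median fold of a window was higher than in the rest of its chromosome in all 3 replicates on 4 autosomes (2, 11, 12 and 16) and lower in all 3 on 7.

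Very few intervals were shared with the control. Of the 1351, 14 overlapped a LacZ interval by at least 1 bp (1.04%, 95% Wilson interval 0.618% to 1.73%), against 0.907% in the rest of the autosomes. Counted from the other list, 14 of the 354 LacZ intervals of the windows overlapped a Gm4665 interval (3.95%), against 330 of 8859 (3.725%) in the rest. The strongest shared interval, chr15:7779938-7781575, lay 0.457 kb from the pseudogene Gm19227, with Gm4665 folds of 39.9, 33.5 and 43.6 (39.0 ± 5.08, SD, n = 3). The next were in Timm44, a mitochondrial import gene (31.9 ± 5.27), Gm10044 (21.5 ± 4.42) and Kif3c, a kinesin gene (13.8 ± 4.44), and 1 lay in the oestrogen receptor gene Esr1 (8.87 ± 4.15). The strongest LacZ intervals of the windows were at other places, led by one at the end of Ccdc3 with 118.9, 40.5 and 74.5 (78.0 ± 39.3, SD, n = 3).

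Against genes, the intervals lay somewhat more often at gene ends and less often in gene bodies. A gene end is taken as 2 kb on either side of an annotated start or end, and 204 of the 1351 midpoints fell there (15.1%, 95% Wilson interval 13.3% to 17.1%), against 13.0% in the rest. Within genes lay 39.4%, against 44.7%, and between genes 45.5%, against 42.3%. The sequence differed the same way: gene ends made up 12.1% of the windows and 11.6% of the rest, and gene bodies 38.7% and 42.6%. For LacZ the share at gene ends was 15.5% in the windows and 15.9% in the rest. Gene positions came from RefSeq and did not separate exons, introns and untranslated regions.

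Counted by gene, the windows were close to the rest. Of 869 protein-coding genes, 111 had an interval at a gene end (12.8%, 95% Wilson interval 10.7% to 15.2%), against 12.6% elsewhere, and 61 of 436 long noncoding RNA genes did (14.0%), against 13.3%. An interval anywhere in the gene or its 2 kb flanks was found for 315 protein-coding genes (36.2%), against 40.2%. Among the 697 protein-coding genes with a known strand, 44 had one at the 5′ end (6.31%, against 6.57%) and 46 at the 3′ end (6.60%, against 6.76%). LacZ intervals were at gene ends of 34 protein-coding genes (3.91%), against 4.10%, and of 20 long noncoding RNA genes (4.59%), against 3.85%.

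The strongest gene ends were led by a pair of collagenase paralogues on chromosome 9. The interval at the 3′ end of Mmp1a (chr9:7476081-7477540) had folds of 52.5, 35.7 and 61.7 (49.97 ± 13.2, SD, n = 3), and that at the 3′ end of Mmp1b (chr9:7367000-7368370) had 56.6, 37.4 and 54.3 (49.4 ± 10.5, SD, n = 3). The copies are similar in sequence and reads may be shared between them, so the pair is uncertain as 2 separate sites. Next came Lyzl1, a lysozyme-like gene (45.8 ± 8.24), and the 5′ end of Camk1d, a calcium-dependent kinase gene (39.9 ± 12.7; SD, n = 3). Mterf1b, a mitochondrial transcription factor gene, had 34.5 ± 7.47 at its 3′ end, and Wap, a milk protein gene short enough for the interval to lie near both of its ends, had 32.02 ± 5.26. Zfp667, a zinc finger gene, had 31.8 ± 3.73 and Ccdc87 31.0 ± 13.2, both at the 3′ end.

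The others of the strongest 15 gene ends had means of 27.1 to 29.2. One interval lay between Casp1 and Casp4, neighbouring genes of inflammatory caspases, at 29.2 ± 6.47, and so is counted at the 3′ end of Casp1 and the 5′ end of Casp4. Another, at 28.9 ± 5.34, was shared by Rpl37, a ribosomal protein gene, and Card6. The 5′ end of Slc22a20, a transporter gene, had 27.6 ± 9.04 and an end of Tmem68 27.1 ± 4.07 (SD, n = 3). A LacZ interval lay at a gene end of 0 of these 15 genes, beside 3.91% of the protein-coding genes of the windows and 4.10% elsewhere.

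Long genes held the most intervals. Rbfox1, a splicing factor gene of 1528 kb, had 19 (12.4 per Mb of gene and flanks), the strongest at 42.6 ± 6.07, and 10 LacZ intervals. Camk1d had 15 within 421 kb (35.3 per Mb) and Arid1b 12 within 353 kb (33.6 per Mb), beside 3 and 5 LacZ intervals. Celf2 had 11 (12.8 per Mb) and Frmd4a, a scaffold protein gene, 10 (16.7 per Mb), beside 4 and 2 LacZ intervals. Per Mb, Camk1d, Arid1b and Frmd4a were above the 14.2 of the windows as a whole, and Rbfox1 and Celf2 were below it. These genes were picked for their counts, which favours high densities.

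Of genes of male germ cell programmes, 94 for spermiogenesis and flagellum lay in the rest of the autosomes and 5 in the windows. Meiosis genes numbered 76 in the rest and 2 in the windows. Protein-coding genes as a whole numbered 19691 in the rest and 869 in the windows. Of 5 spermiogenesis and flagellum genes there, 2 had an interval at a gene end, against 14.9% of 94 elsewhere: Meig1, needed for spermatid differentiation (10.01 ± 1.90 at its 3′ end), and Catsper1, a subunit of the sperm calcium channel (7.06 ± 1.45; SD, n = 3). Crem, a transcription factor of spermatids, and Armc4, which serves dynein arm assembly, had intervals of 7.35 ± 2.22 and 13.6 ± 6.60 inside the gene, and Cfap69 had none. An interval anywhere in or near the gene was thus found for 4 of the 5, and for 58 of 94 elsewhere. Of the meiosis genes Hormad2 and Majin, 0 of 2 had a gene-end interval, against 9.21%, though Majin, which tethers telomeres to the nuclear envelope in meiosis, had one of 11.1 ± 1.65 inside (28 of 76 elsewhere had one anywhere in or near the gene). Birc2 and Bad, regulators of apoptosis, had none in or near the gene (of 31 such genes elsewhere 14 had one, and 16.1% had one at a gene end). The interval over the promoter of Tesmin, a testis-expressed gene, was weak at 6.16 ± 0.764 (SD, n = 3).

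Gene families were counted by gene ends in the same way. Vomeronasal receptor genes, which detect pheromones, had 1 of 23, against 4.91% elsewhere, at Vmn2r35 (14.5 ± 3.96). Olfactory receptor genes had 2 of 10, against 5.87%, at Olfr15 (12.2 ± 1.73) and Olfr1346 (5.65 ± 1.67; SD, n = 3). Zinc finger genes had 3 of 25, against 7.09%: Zfp667, given above, Zfp438 (14.9 ± 2.72) and Zfp787 (10.3 ± 3.94). Ribosomal protein genes had 1 of 4, against 10.5%, and microRNA genes 1 of 36, against 7.10%. With so few members in each family, these shares rest on 1 to 3 genes.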

How the data were processed

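Chromatin captured with Gm4665 or LacZ probes was sequenced beside input, with 3 replicates each, grouped by sample title. Per the file names of the deposited lists, the authors called intervals with MACS2; the sources used here do not give its version and settings, the aligner or the treatment of reads with several matches. Per the submitters' processing notes, the genome was mm10. Per the file headers, each row holds 1 linear fold enrichment over input (a ratio) for each replicate, 1 pileup signal (read coverage at the summit) whose replicate is not named, and a width and summit in bp. Both lists give 1 set of positions for 3 replicates, and the way replicates were merged is not stated in those sources.

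Rows repeating an interval were merged, keeping each replicate's highest fold, which joined 18 repeated rows in the windows for Gm4665 and 11 for LacZ. Chromosome lengths were not used here, so each autosome was taken from 3000000 to its last interval or gene. Density ratios and shares carry 95% intervals for counting error. Folds were compared by exact permutation tests over replicates. Genes (46714 on the autosomes, those starting below 3000000 left out) and promoter and microRNA sequences came from RefSeq tables of GRCm38.p6. Named items were the strongest 10, widest 3 and lowest-starting 3 intervals, the strongest of each autosome, up to 5 shared with LacZ, the 5 strongest LacZ intervals, the 15 strongest protein-coding gene ends, the 5 genes with most intervals, up to 4 genes of each list and the 3 densest and 3 sparsest autosomes; 1 of the strongest 10 intervals is not reported here, and others, among them Esr1, Tesmin, the promoters after Gdi2 and the chromosome 9 end, were chosen after their values were seen. The intervals, gene lists and tests were all chosen with earlier results of these data known. Python 3.11.15, numpy 2.4.6, pandas 2.3.3, scipy 1.17.1 and matplotlib 3.10.9 were used, and the procedure was tested on simulated data. Alternatives were other window lengths, the adjacent 5 Mb as reference, stricter folds, rows as deposited, other overlap and gene-end rules, and leaving out each autosome or replicate.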

Additional observations from a re-analysis of the deposited data

How the results depend on the processing

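The pooled Gm4665 density ratio stayed below 1 under all 28 alternatives tried (0.879 to 0.942), and the pooled LacZ ratio ran from 0.915 to 1.07 over 27. Most of these alternatives left out 1 autosome from the same lists, so they do not address the wide spread between autosomes. The difference of median fold ratios, Gm4665 minus LacZ, ran from -0.0513 to 0.0644 over 13 settings. At those ends the groups separated completely in opposite directions (exact permutation p = 0.1, the smallest possible): -0.0513 against the adjacent 5 Mb and 0.0644 with windows of 3 Mb. The sign also turned in 3 other settings, to 0.0210 with windows of 7 Mb (exact permutation p = 0.3), 0.00613 without Gm4665 replicate 2 and 0.0125 without LacZ replicate 2. Leaving out single replicates gave -0.0299 to 0.0125. The difference of mean log2 folds was 0.0449 to 0.0784 on leaving out single replicates (exact permutation p = 0.2, the smallest possible with 1 replicate left out). It turned to -0.00916 without the first 40 kb of chromosome 9, an alternative chosen after seeing the data. With the replicate number as a block, the exact permutation p was 1.00 for the ratio difference (-0.00721). For the log2 difference (0.0664) it was 0.25, the smallest that 3 pairs allow. The lists hold different intervals, so whether the numbers pair samples could not be checked. Against the adjacent 5 Mb the Gm4665 median fold ratio was 0.962. The LacZ width ratio was 0.921 with windows of 3 Mb. With gene ends of 1 kb, 8.22% of the intervals lay at one, against 7.07% in the rest; with protein-coding genes only, 7.55% and 6.54%. Overlap with LacZ in the rest was 0.549% when 50% of an interval had to overlap, and 1.05% with midpoints within 1 kb; in the windows it was 0.814% and 1.11%. The strongest 10 kept 8 to 9 members without 1 replicate. Positions have no replicate spread, and library depth is unknown.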
